A study of Homo sapiens with 6 samples.

Results

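Kinesins are motor proteins that use ATP to move along microtubules or to take them apart at their ends. In dividing cells a subset builds the spindle, moves chromosomes and completes cytokinesis, and the transcripts of that subset peak late in the cell cycle. Other kinesins carry vesicles, mitochondria and other cargo through the cell at all times, and a further group serves cilia, microtubule ends or signalling. The kinesins were taken as every row of the deposited expression table whose symbol is KIF or KIFC followed by a number and optional letters, which gave 40 of 18780 genes. By textbook role 13 of them were set down as mitotic motors, 16 as transport motors and 11 as motors of cilia or of other roles. KIF2A, which acts at spindle poles and in neurons, was set down under other roles and could also be counted as mitotic. KIF21A, which slows microtubule growth at the cell cortex, was set down as a transport motor and could also be counted under other roles. CENPE, the mitotic motor of kinetochores, is a kinesin whose symbol falls outside this pattern and is given among the partners.

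RNA was sequenced from PC-3, a cell line that stems from a human prostate cancer, in 6 libraries. TGH is trans-Gnetin H, a trimer of the plant polyphenol resveratrol, and DMSO is its solvent. Cells were given TGH at 2.5 µM for 24 h (n = 3) or DMSO alone for 24 h (n = 3). Both groups grew in the same serum-supplemented medium, and nothing in the labels says whether the replicates of a group are separate cultures, so p-values measure the spread between these samples alone. Values are in TPM, in which reads are divided by the length of the transcript and by the total of the library. Levels of different kinesins can therefore be set side by side. The listed genes summed to 507945 to 518870 TPM in the TGH libraries and 502380 to 509407 TPM in the DMSO libraries. These sums are less than a full TPM total, and what makes up the rest is unknown. Differences are on the log2(TPM + 1) scale, as TGH minus DMSO, which understates the change of low genes.

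How deeply each library was sequenced is unknown, because TPM does not keep read totals. The table listed between 1342 and 1498 genes at exactly 0 in the TGH libraries, against 1530 in DMSO replicate 3 and 3074 and 3185 in DMSO replicates 1 and 2. The 5 epithelial markers were abundant, with a sum of 1494 ± 8.18 TPM with TGH and 1870.1 ± 47.9 TPM with DMSO (SD, n = 3 each), and 3 of them (KRT8, KRT18 and EPCAM) were called lower, while KRT19 and CDH1 were not called. HOXB13, a marker of luminal prostate cells, was called lower, at 19.9 ± 0.867 TPM with TGH and 29.5 ± 1.001 TPM with DMSO. Markers of endothelial, immune and neuroendocrine cells were near or under 1 TPM in sum. The endothelial markers summed to 0.447 to 0.598 TPM with TGH against 0.322 to 0.389 TPM with DMSO, and the 4 neuroendocrine markers measured to 0.340 to 0.395 TPM against 0.188 to 0.298 TPM. Of the endothelial markers KDR averaged 0.312 TPM with TGH and 0.102 TPM with DMSO. PECAM1 and CDH5 had lower means with TGH, and VWF was near 0 in both groups. The neuroendocrine sums were nearly all SYP. The 5 immune markers summed to 0.401 to 0.501 TPM with TGH against 0.189 to 0.441 TPM with DMSO, and the 5 fibroblast markers to 3.25 to 3.77 TPM against 3.58 to 4.78 TPM, most of it COL1A1. The part of these marker differences in the results on kinesins was not tested.

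Members of 1 subfamily can serve different roles, and in some subfamilies, not in all, their promoters differ in letters that are known from cell cycle genes. The cell cycle homology region (CHR), with the letters TTTGAA or TTCGAA, is known as the site of the MuvB complexes that switch late cell cycle genes, and the CCAAT box as the site of NF-Y. The promoters of KIF14 and KIF13A, both of the kinesin-3 subfamily, are shown with those of KIF4A and KIF21A, both of kinesin-4. They were chosen because KIF14 and KIF4A are mitotic motors, while KIF13A and KIF21A were set down as transport motors. Those of KIF11 and KIF20A are added as the promoters of the mitotic motors whose transcripts differed most. Sequences are RefSeq promoters of GRCh38.p14, from 250 bases before to 50 bases after the transcription start, read 5′ to 3′ on the strand of the gene, and capitals mark CHR and CCAAT matches on either strand.
KIF14, chr1:200620702-200621001, minus strand: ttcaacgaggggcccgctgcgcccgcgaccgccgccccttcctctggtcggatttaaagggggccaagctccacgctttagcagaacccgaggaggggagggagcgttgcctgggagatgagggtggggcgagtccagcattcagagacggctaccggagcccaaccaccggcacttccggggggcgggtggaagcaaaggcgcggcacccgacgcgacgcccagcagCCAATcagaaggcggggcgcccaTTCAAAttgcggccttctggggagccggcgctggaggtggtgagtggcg
KIF13A, chr6:17987586-17987885, minus strand: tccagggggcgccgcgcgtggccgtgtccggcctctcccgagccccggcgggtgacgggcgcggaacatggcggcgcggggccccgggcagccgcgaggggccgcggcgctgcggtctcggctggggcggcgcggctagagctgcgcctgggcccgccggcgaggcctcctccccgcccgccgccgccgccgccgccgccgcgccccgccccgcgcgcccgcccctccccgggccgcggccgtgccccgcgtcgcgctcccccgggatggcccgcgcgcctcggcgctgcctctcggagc
KIF4A, chrX:70289854-70290153, plus strand: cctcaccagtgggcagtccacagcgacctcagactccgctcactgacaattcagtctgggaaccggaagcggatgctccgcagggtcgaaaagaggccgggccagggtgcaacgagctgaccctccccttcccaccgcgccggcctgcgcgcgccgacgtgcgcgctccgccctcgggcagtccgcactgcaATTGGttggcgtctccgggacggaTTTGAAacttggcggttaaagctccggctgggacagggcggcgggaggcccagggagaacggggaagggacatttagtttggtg
KIF21A, chr12:39443071-39443370, minus strand: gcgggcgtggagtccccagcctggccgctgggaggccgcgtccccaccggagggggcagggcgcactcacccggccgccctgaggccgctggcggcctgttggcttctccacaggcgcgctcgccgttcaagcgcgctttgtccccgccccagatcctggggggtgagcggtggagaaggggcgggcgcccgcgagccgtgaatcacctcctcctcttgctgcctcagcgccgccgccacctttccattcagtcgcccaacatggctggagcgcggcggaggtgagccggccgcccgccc
KIF11, chr10:92592880-92593179, plus strand: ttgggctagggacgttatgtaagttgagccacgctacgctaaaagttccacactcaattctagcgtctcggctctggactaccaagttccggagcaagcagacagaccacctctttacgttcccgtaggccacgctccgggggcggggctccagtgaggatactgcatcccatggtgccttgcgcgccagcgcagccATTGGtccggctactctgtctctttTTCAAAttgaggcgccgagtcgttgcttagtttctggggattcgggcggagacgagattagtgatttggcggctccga
KIF20A, chr5:138178862-138179161, plus strand: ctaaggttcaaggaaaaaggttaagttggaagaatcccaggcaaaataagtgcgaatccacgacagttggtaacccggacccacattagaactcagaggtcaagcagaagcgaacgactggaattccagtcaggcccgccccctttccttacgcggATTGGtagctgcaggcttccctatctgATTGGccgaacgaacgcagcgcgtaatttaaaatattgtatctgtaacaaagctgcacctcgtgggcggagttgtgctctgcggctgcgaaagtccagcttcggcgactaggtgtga

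The KIF14 window holds CCAAT at base -22 and TTCAAA, the reverse complement of TTTGAA, at base 2, where the transcription start is base 1. The KIF4A window holds ATTGG, the reverse complement of CCAAT, at base -58 and TTTGAA at base -34. In the KIF11 window ATTGG lies at base -53 and TTCAAA at base -28. The windows of KIF13A and KIF21A hold neither motif, and that of KIF20A holds 2 ATTGG matches and no CHR letters. These pairs do not stand for every subfamily. In kinesin-13 the windows of KIF2C, listed as mitotic, and of KIF2A hold neither motif, while that of KIF24 holds both. KIF1B, a transport motor of kinesin-3, has ATTGG matches and no CHR letters.

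Of the 40 kinesins, 30 averaged 1 TPM or more across all 6 libraries and were tested, and none of these 30 was listed at 0 in any library. With TGH 18 were lower, 8 were higher and 4 were not called (limma, adjusted p under 0.05). Over all 12018 genes tested 26.3% were called lower and 28.9% higher, 55.2% in all. By role, the 12 tested motors listed as mitotic were all lower, with a median difference of -0.76, beside 0.02 over all genes tested. With KIF2A counted among them, a choice made after seeing the data, 12 of 13 were lower, KIF2A was not called and the median was -0.75. Among 13 tested transport motors 7 were higher, 4 were lower and 2 were not called, with a median of 0.19. This median was 0.0445 with a filter at a mean of 5 TPM, 0.093 without a filter and 0.11 with a pseudocount of 5, under quantile normalization or against DMSO replicate 3 alone, and 4 transport motors were higher under the 5 TPM filter and under quantile normalization. Among 5 tested motors of cilia and other roles 1 was higher, 2 were lower and 2 were not called, with a median of -0.08.

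**Figure D1:**
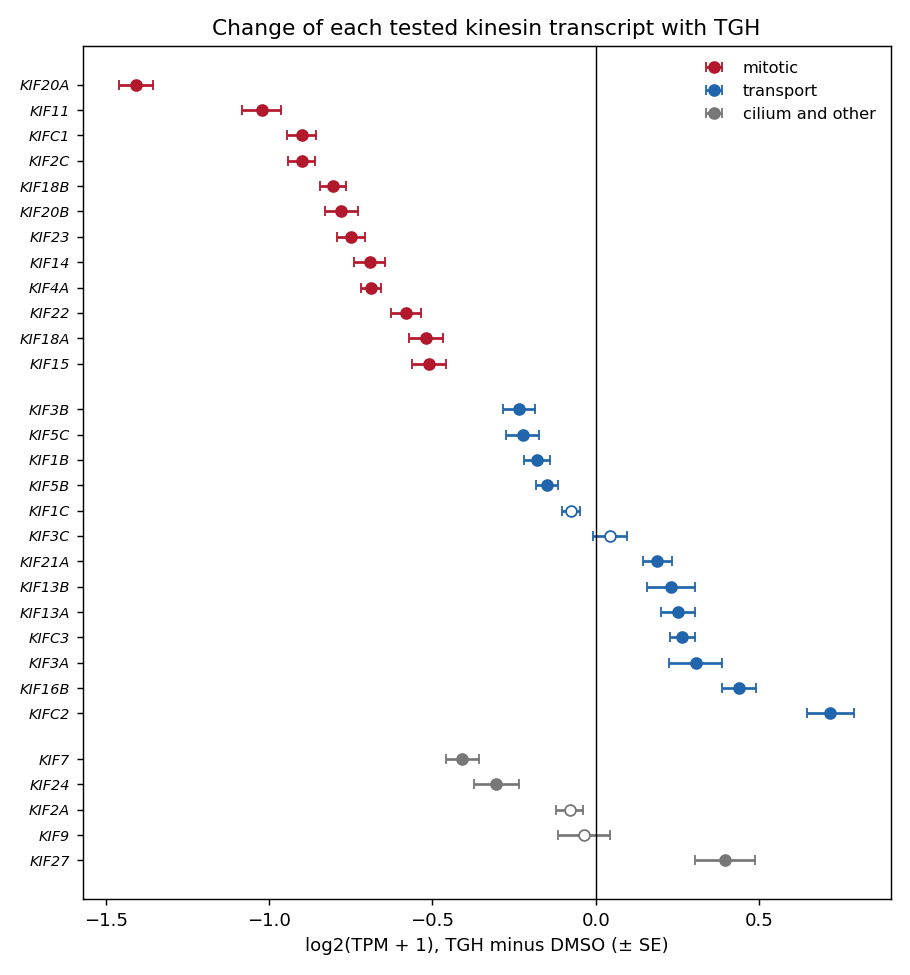
Each row is 1 tested kinesin, grouped by role, and the point gives its difference in log2(TPM + 1), TGH minus DMSO, with its standard error; filled points were called and open points were not. The 12 mitotic motors lie between -1.41 and -0.51, left of every other kinesin, while the transport motors lie between -0.23 and 0.72.

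The 12 tested motors listed as mitotic each fell by more than 0.5 on the log2 scale, a size of call reached by 3.31% of all genes tested. KIF2A, at -0.08 and not called, would be the exception if it were counted as mitotic. The smallest of these falls, that of KIF15 at -0.51, was larger than the largest fall among the other kinesins, that of KIF7 at -0.41. Summed over the class, mitotic motors had 180.3, 177 and 178 TPM in TGH replicates 1 to 3, against 325, 324 and 323 TPM in DMSO replicates 1 to 3. The transport motors summed to 171, 170.2 and 172 TPM with TGH, against 164, 168 and 164 TPM with DMSO. The mitotic share of all kinesin TPM was thus 47.8% ± 0.146 with TGH and 62.7% ± 0.192 with DMSO (SD, n = 3 each). The ratio of mitotic to transport TPM was 1.04 ± 0.009 with TGH and 1.96 ± 0.024 with DMSO. In bulk RNA, fewer cells in mitosis and less RNA per cell cannot be told apart.

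**Figure D2:**
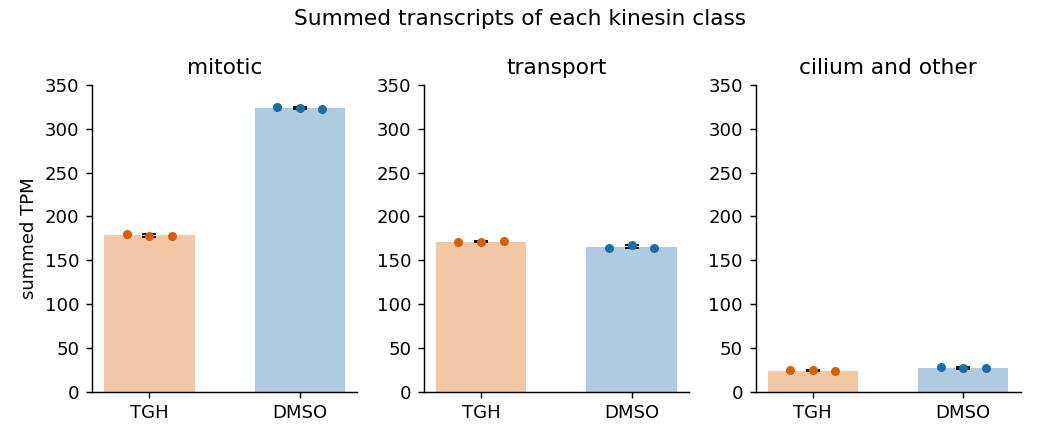
Bars give the mean summed TPM of each kinesin class in TGH and DMSO cells, error bars the SD over 3 libraries, and points the libraries. The mitotic sum was near 178 TPM with TGH and near 324 TPM with DMSO, while the transport sum was 171 ± 0.697 TPM with TGH and 165 ± 1.91 TPM with DMSO.

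The motors of the central spindle and of cytokinesis included the largest fall. KIF20A (MKLP2), which brings the chromosomal passenger complex to the central spindle, had 8.71, 9.23 and 9.66 TPM in TGH replicates 1 to 3, against 25.1, 27.5 and 25.5 TPM in DMSO replicates 1 to 3. Its TGH level was 35.3% of the DMSO level, a difference of -1.41 (SE 0.051, limma adjusted p = 5.13e-06). KIF23 (MKLP1), the motor subunit of centralspindlin, had 19.5, 18.02 and 18.4 TPM in TGH replicates 1 to 3, against 32.4, 32.8 and 30.8 TPM in DMSO replicates 1 to 3, a difference of -0.75 (SE 0.042, limma adjusted p = 2.37e-05). KIF20B (MPP1), a relative of KIF20A that also acts in cytokinesis, had 6.75, 6.53 and 6.33 TPM in TGH replicates 1 to 3, against 12.5, 11.1 and 12.2 TPM in DMSO replicates 1 to 3, a difference of -0.78 (SE 0.052, limma adjusted p = 4.73e-05). These 3 motors make up the kinesin-6 subfamily, and in each of them every TGH library lay below every DMSO library. The same held for 30.8% of all genes tested. KIF14, a kinesin-3 that works with citron kinase in cytokinesis, had 7.47, 7.17 and 7.43 TPM in TGH replicates 1 to 3, against 12.04, 13.3 and 12.1 TPM in DMSO replicates 1 to 3, a difference of -0.69 (SE 0.048, limma adjusted p = 5.78e-05).

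Of the motors that set up the spindle and its poles KIF11, KIF15 and KIFC1 fell, and KIF2A, given with the motors of other roles, was not called. KIF11 (Eg5), the tetrameric motor that slides antiparallel microtubules and makes the spindle bipolar, had 10.1, 8.96 and 10.5 TPM in TGH replicates 1 to 3, against 21.9, 20.5 and 20.7 TPM in DMSO replicates 1 to 3. Its TGH level was 46.9% of the DMSO level, a difference of -1.02 (SE 0.060, limma adjusted p = 2.94e-05). KIF15, which can keep the spindle bipolar when KIF11 is blocked, had 6.61, 6.40 and 6.06 TPM in TGH replicates 1 to 3, against 9.12, 10.1 and 9.23 TPM in DMSO replicates 1 to 3. It had the smallest fall of the mitotic motors, -0.51 (SE 0.052, limma adjusted p = 0.000289). Its groups did not overlap, and 30.8% of all genes tested were likewise entirely lower with TGH. KIFC1 (HSET), a motor that moves towards minus ends and focuses spindle poles, had 24.97, 26.5 and 27.03 TPM in TGH replicates 1 to 3, against 47.5, 51.9 and 49.8 TPM in DMSO replicates 1 to 3, a difference of -0.90 (SE 0.045, limma adjusted p = 1.58e-05).

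The motors of chromosomes and of microtubule ends fell by 0.52 to 0.90. KIF2C (MCAK), a kinesin-13 that takes microtubules apart at centromeres, was the most abundant mitotic motor in both groups, with 30.4, 30.2 and 28.8 TPM in TGH replicates 1 to 3, against 59.4, 54.1 and 56.02 TPM in DMSO replicates 1 to 3. Its difference was -0.90 (SE 0.042, limma adjusted p = 1.35e-05), close in size to that of KIFC1. KIF18B, a kinesin-8 that acts with KIF2C on astral microtubules, had 15.2, 14.5 and 14.7 TPM in TGH replicates 1 to 3, against 27.8, 25.6 and 26.3 TPM in DMSO replicates 1 to 3, a difference of -0.80 (SE 0.039, limma adjusted p = 1.55e-05). Its relative KIF18A, which limits the swings of chromosomes at the metaphase plate, had 5.99, 6.43 and 5.93 TPM in TGH replicates 1 to 3, against 9.74, 9.004 and 8.87 TPM in DMSO replicates 1 to 3, a difference of -0.52 (SE 0.051, limma adjusted p = 0.000237). Both kinesin-8 motors tested were thus lower, and in neither did the groups overlap, beside 30.8% of all genes tested that were entirely lower.

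Of the motors on chromosome arms, KIF4A, which with PRC1 sets the length of the central spindle, had 21.1, 20.3 and 20.3 TPM in TGH replicates 1 to 3, against 34.4, 32.9 and 33.9 TPM in DMSO replicates 1 to 3. Its difference was -0.69 (SE 0.032, limma adjusted p = 1.27e-05). KIF22 (Kid), which pushes chromosome arms away from the poles, had 23.4, 23.2 and 22.6 TPM in TGH replicates 1 to 3, against 33.04, 34.9 and 37.2 TPM in DMSO replicates 1 to 3, a difference of -0.58 (SE 0.046, limma adjusted p = 9.85e-05). KIF4B is an intronless copy of KIF4A and was at most 0.116 TPM, so these genes could share reads, and it was not tested.

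**Figure D3:**
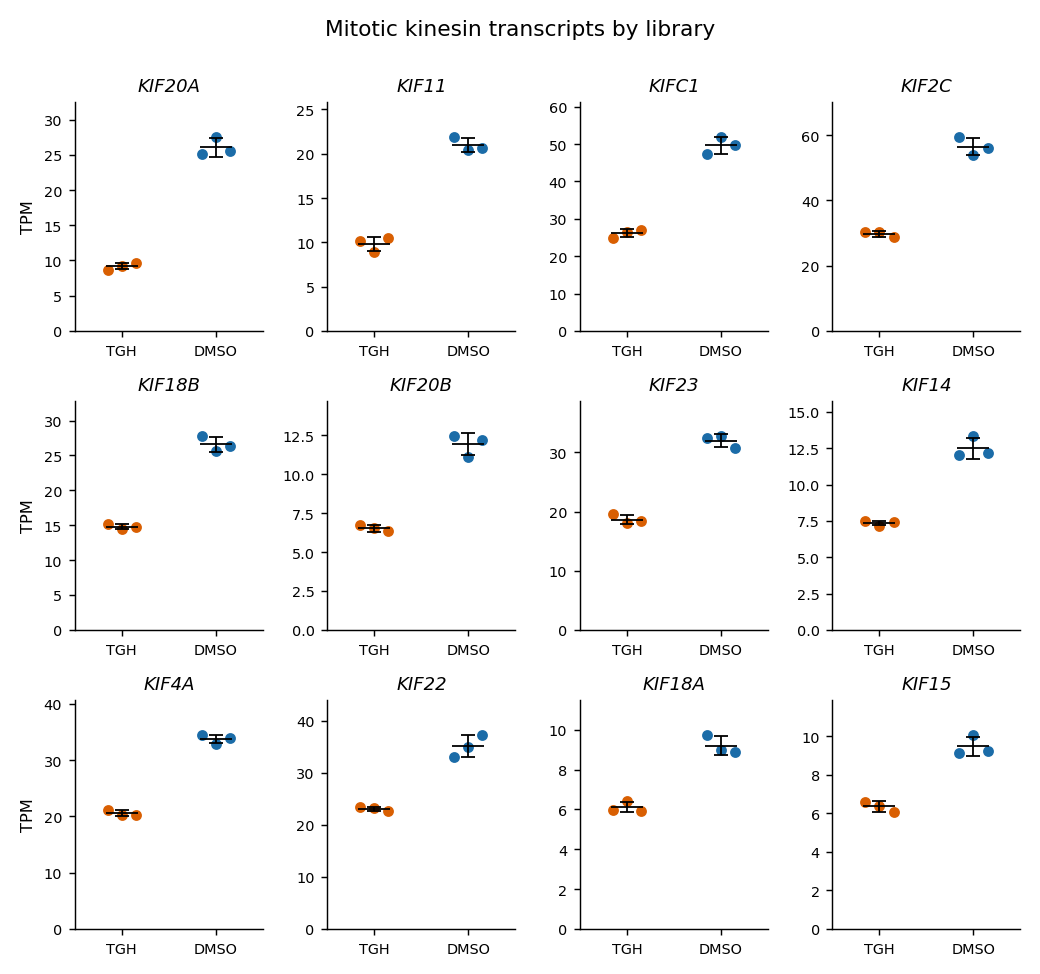
Each panel shows 1 tested mitotic kinesin, with TPM in the 3 TGH libraries left of the 3 DMSO libraries, and the mean with its SD in black. In all 12 panels the TGH points lie below the DMSO points, from 35.3% of the DMSO mean in KIF20A to 67.1% in KIF15.

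Groups without overlap were common in these data, with 30.8% of all genes tested entirely lower with TGH and 33.6% entirely higher. All 12 mitotic motors were entirely lower. Each of the 12 remained called and lower under all 18 alternatives tried, with DMSO replicate 3 as the only control among them. Of the 13 tested transport motors, 9 kept their direction and their side of the threshold under every alternative that tested them.

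Among transport motors the minus-end motors of the kinesin-14 subfamily rose. KIFC2, known from transport in neurons, had 11.95, 11.7 and 11.9 TPM in TGH replicates 1 to 3, against 6.03, 6.92 and 7.56 TPM in DMSO replicates 1 to 3. This was the largest rise of any kinesin, 0.72 (SE 0.072, limma adjusted p = 0.000259). KIFC3, which acts at Golgi membranes and at cell junctions, had 22.1, 23.6 and 22.6 TPM in TGH replicates 1 to 3, against 18.2, 18.8 and 19.2 TPM in DMSO replicates 1 to 3, a difference of 0.27 (SE 0.037, limma adjusted p = 0.00112). Both therefore moved opposite to KIFC1, the mitotic member of the same subfamily. Within libraries the ratio of KIFC2 to KIFC1 TPM was 0.479, 0.441 and 0.441 in TGH replicates 1 to 3, against 0.127, 0.133 and 0.152 in DMSO replicates 1 to 3. This ratio was singled out after its values were seen and was not tested.

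Vesicle motors of the kinesin-3 subfamily went both ways. KIF16B, which carries early endosomes, had 5.92, 5.48 and 6.04 TPM in TGH replicates 1 to 3, against 4.17, 4.01 and 3.90 TPM in DMSO replicates 1 to 3, a difference of 0.44 (SE 0.051, limma adjusted p = 0.000522). KIF13A, which carries recycling endosomes, averaged 13.2 ± 0.624 TPM with TGH and 10.9 ± 0.609 TPM with DMSO (SD, n = 3 each), a difference of 0.25 (SE 0.053, limma adjusted p = 0.00659). Its close relative KIF13B averaged 2.99 ± 0.139 TPM with TGH and 2.41 ± 0.271 TPM with DMSO, a difference of 0.23 (SE 0.074, limma adjusted p = 0.0341). The KIF13B call was lost under 9 of 17 alternatives, such as DMSO replicate 3 as the only control (0.11, limma adjusted p = 0.274), without TGH replicate 1 (0.23, adjusted p = 0.0919), without TGH replicate 2 (0.26, adjusted p = 0.0571), without TGH replicate 3 (0.21, adjusted p = 0.109), without DMSO replicate 1 (0.18, adjusted p = 0.0716) and without DMSO replicate 2 (0.22, adjusted p = 0.0753). KIF1B, a carrier of mitochondria and synaptic vesicle precursors, was lower, at 6.52 ± 0.154 TPM with TGH and 7.51 ± 0.194 TPM with DMSO, a difference of -0.18 (SE 0.040, limma adjusted p = 0.00857). KIF1C, which carries vesicles and integrins, averaged 31.0 ± 0.642 TPM with TGH and 32.7 ± 0.233 TPM with DMSO and was not called, at -0.08 (SE 0.027, limma adjusted p = 0.0529). Its p crossed the threshold under 4 alternatives, with values down to -0.11 under median scaling (adjusted p = 0.0175).

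Of the kinesin-1 motors, which move mitochondria, vesicles and mRNA, KIF5B and KIF5C fell slightly, and KIF5A was too low to be tested. KIF5B, the ubiquitous heavy chain, was the most abundant kinesin of the transport class, at 36.5 ± 0.993 TPM with TGH and 40.6 ± 1.06 TPM with DMSO (SD, n = 3 each). Its difference was -0.15 (SE 0.033, limma adjusted p = 0.00806). KIF5C, best known from neurons, averaged 2.68 ± 0.098 TPM with TGH and 3.29 ± 0.019 TPM with DMSO, a difference of -0.22 (SE 0.050, limma adjusted p = 0.00859).

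The kinesin-2 motors of intraflagellar and vesicle transport did not move together. KIF3A had 4.07, 3.52 and 3.73 TPM in TGH replicates 1 to 3, against 2.67, 3.25 and 2.67 TPM in DMSO replicates 1 to 3, a difference of 0.31 (SE 0.081, limma adjusted p = 0.0168), and this call was lost under quantile normalization (0.19, limma adjusted p = 0.0831), without TGH replicate 1 (0.26, adjusted p = 0.0617) and without DMSO replicate 3 (0.27, adjusted p = 0.0526). KIF3B, which pairs with KIF3A in the same motor, was lower, at 16.4 ± 0.236 TPM with TGH and 19.5 ± 1.28 TPM with DMSO, a difference of -0.23 (SE 0.050, limma adjusted p = 0.00694). KIF3C, another partner of KIF3A, averaged 9.08 ± 0.015 TPM with TGH and 8.78 ± 0.643 TPM with DMSO and was not called, at 0.04 (SE 0.053, limma adjusted p = 0.501). KIF21A, a kinesin-4 that slows microtubule growth at the cell cortex, averaged 8.03 ± 0.163 TPM with TGH and 6.93 ± 0.324 TPM with DMSO, a difference of 0.19 (SE 0.044, limma adjusted p = 0.0109). This call too was lost under quantile normalization (0.12, limma adjusted p = 0.071). KIF21A was counted as a transport motor, and its difference is the median of that class, which was not recomputed without it.

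**Figure D4:**
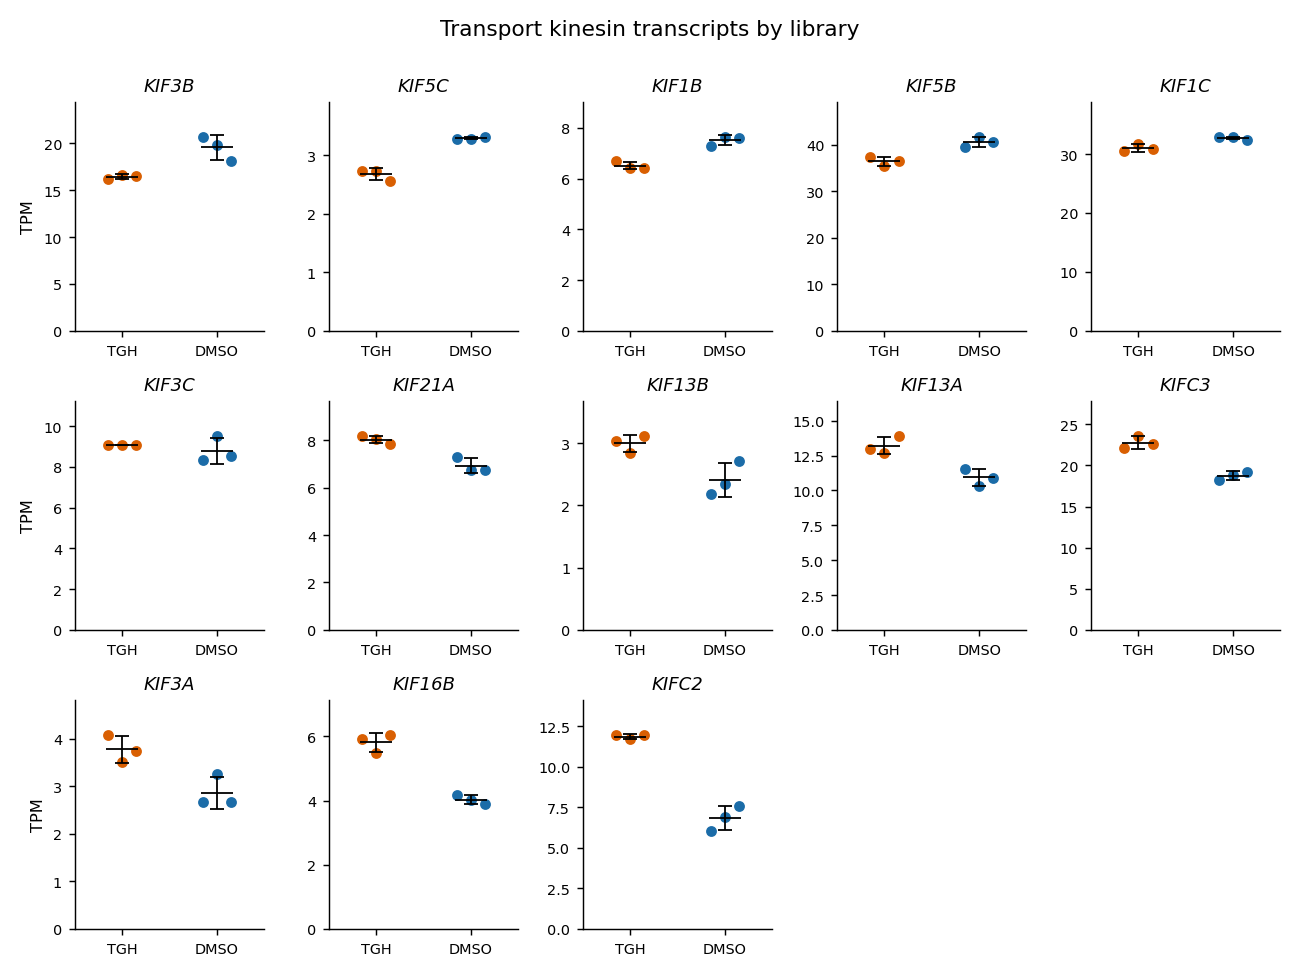
Each panel shows 1 tested transport kinesin, with TPM in the 3 TGH libraries left of the 3 DMSO libraries, and the mean with its SD in black. Panels run from KIF3B, with the largest fall (-0.23), to KIFC2, with the largest rise (0.72), and the TGH means lie between 81.3% and 173% of the DMSO means.

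Among motors of cilia and of other roles KIF7, a kinesin-4 of the Hedgehog pathway that works at the tip of cilia, had 6.23, 5.87 and 5.93 TPM in TGH replicates 1 to 3, against 8.76, 8.38 and 7.79 TPM in DMSO replicates 1 to 3, a difference of -0.41 (SE 0.052, limma adjusted p = 0.000747). KIF24, a kinesin-13 that acts on centrioles and restrains cilium formation, had 1.37, 1.40 and 1.39 TPM in TGH replicates 1 to 3, against 2.14, 1.92 and 1.80 TPM in DMSO replicates 1 to 3, a difference of -0.30 (SE 0.069, limma adjusted p = 0.0091). Its call was lost against DMSO replicate 3 alone (-0.23, limma adjusted p = 0.0547). KIF27, a relative of KIF7, had 1.39, 1.86 and 1.47 TPM in TGH replicates 1 to 3, against 1.04, 0.890 and 0.919 TPM in DMSO replicates 1 to 3. It was called at 0.39 (SE 0.092, limma adjusted p = 0.0102), but its DMSO mean of 0.951 TPM was under 1, so it entered the test through its TGH level, and the call was lost under quantile normalization (0.25, limma adjusted p = 0.0716). KIF2A, a kinesin-13 of spindle poles and neurons, averaged 11.6 ± 0.546 TPM with TGH and 12.3 ± 0.0941 TPM with DMSO and was not called, at -0.08 (SE 0.041, limma adjusted p = 0.142). It was called lower under median scaling (-0.11, limma adjusted p = 0.047). KIF9, a ciliary motor, averaged 2.08 ± 0.150 TPM with TGH and 2.16 ± 0.248 TPM with DMSO and was not called, at -0.04 (SE 0.079, limma adjusted p = 0.718). KIF9 has an antisense gene in the table, and the sources used here do not say how reads of each strand were counted.

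The other 10 kinesins were under the 1 TPM mean and were not tested. KIF1A, the axonal vesicle motor, KIF6, KIF25 and KIF26B stayed under 0.1 TPM in all 6 libraries and are taken as not expressed. KIF6 was listed at 0 in TGH replicate 2 and in all 3 DMSO libraries, and had 0.0108 and 0.0171 TPM in TGH replicates 1 and 3. KIF4B, KIF5A, KIF12, KIF17, KIF21B and KIF26A were low. KIF5A, a neuronal kinesin-1, had 0.183, 0.144 and 0.153 TPM in TGH replicates 1 to 3, against 0.0150, 0.0995 and 0.0426 TPM in DMSO replicates 1 to 3. KIF17, a motor of cilia and dendrites, had 0.538, 0.533 and 0.555 TPM with TGH, against 0.418, 0.240 and 0.429 TPM with DMSO. In both every TGH value lay above every DMSO value, as in 33.6% of all genes tested. No such share was computed for genes under the filter. DMSO replicates 1 and 2 listed 3074 and 3185 genes at 0, and such low values were not tested. Nearest to the filter were KIF27, which passed, and KIF26A, which did not, with 0.548 ± 0.108 TPM with TGH and 0.632 ± 0.180 TPM with DMSO.

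Kinesins of 1 subfamily share their motor type by descent, and several subfamilies held calls in both directions. In kinesin-6 all 3 tested motors fell, and in kinesin-8 both did. Both tested motors of kinesin-1, which are transport motors, fell too, KIF5B by 0.15 and KIF5C by 0.22. Over all genes tested 26.3% were called lower. In kinesin-3 KIF14 fell by 0.69, whereas KIF13A, KIF13B and KIF16B rose by 0.23 to 0.44 and KIF1B fell by 0.18. In kinesin-4 KIF4A fell by 0.69 and KIF7 by 0.41, whereas KIF21A rose by 0.19. In kinesin-13 KIF2C fell by 0.90 and KIF24 by 0.30, while KIF2A was at -0.08 and was not called. In kinesin-14 KIFC1 fell by 0.90, whereas KIFC2 rose by 0.72 and KIFC3 by 0.27. These subfamily comparisons set differences of single genes beside each other and carry no test of their own.

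The promoter letters were then counted by role. RefSeq promoters were matched for 26 of the 30 tested kinesins, and KIF13B, KIF27, KIFC2 and KIFC3 were not analysed here. CHR letters (TTTGAA, its reverse complement TTCAAA, or TTCGAA, which is its own) were found for 10 of 12 mitotic motors and for 1 of 10 transport motors, beside 15% of the 8794 tested genes with a promoter. The KIF2A window held neither motif. CCAAT or ATTGG was found for 10 of 12 mitotic and 4 of 10 transport motors, beside 43.4% of those genes. Both motifs were found for 9 of 12 mitotic motors and 1 of 10 transport motors, beside 6.39%. A gene with several listed starts counted once if any of its windows held the motif, and no CHR match overlapped a CCAAT match in a kinesin promoter. The median GC content was 62.2% in mitotic, 69.8% in transport and 65% in all promoters of tested genes, and the part of base composition in the motif counts was not tested.

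Among the mitotic motors the matches lay close to the transcription start. In all 10 with CHR letters a match began between base -55 (KIF23) and base 31 (KIF20B). In a window only slightly wider than this observed range, 5.04% of the 8794 tested genes with a promoter held a CHR match. Because that window encloses the matches of these 10 motors, all of them lie in it by construction. The share is a description and no test of their position. In all 9 mitotic motors with both motifs a CCAAT match lay upstream of the CHR match. For this order and for the distances below no share over all genes was computed. Counted from the first base of the nearest upstream CCAAT match to the first base of the CHR match, the distance was 23 bases in KIF14, 24 in KIF4A, 25 in KIF11, 34 in KIF18B, 35 in KIF18A, 39 in KIF22 and 50 in KIFC1, with 9 in KIF23 and 122 in KIF20B at the ends of the range. KIF15 had the CHR letters alone, KIF20A had CCAAT matches alone and KIF2C had neither, although KIF20A and KIF2C were among the 4 largest falls. In KIF5B, the transport motor with both, TTTGAA began at base -140, upstream of its ATTGG at base -59. Outside the mitotic class KIF24 had TTCGAA at base 2 and ATTGG 48 bases upstream of it by the same count, and it too was called lower. A match describes letters in these windows and shows no binding.

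**Figure D5:**
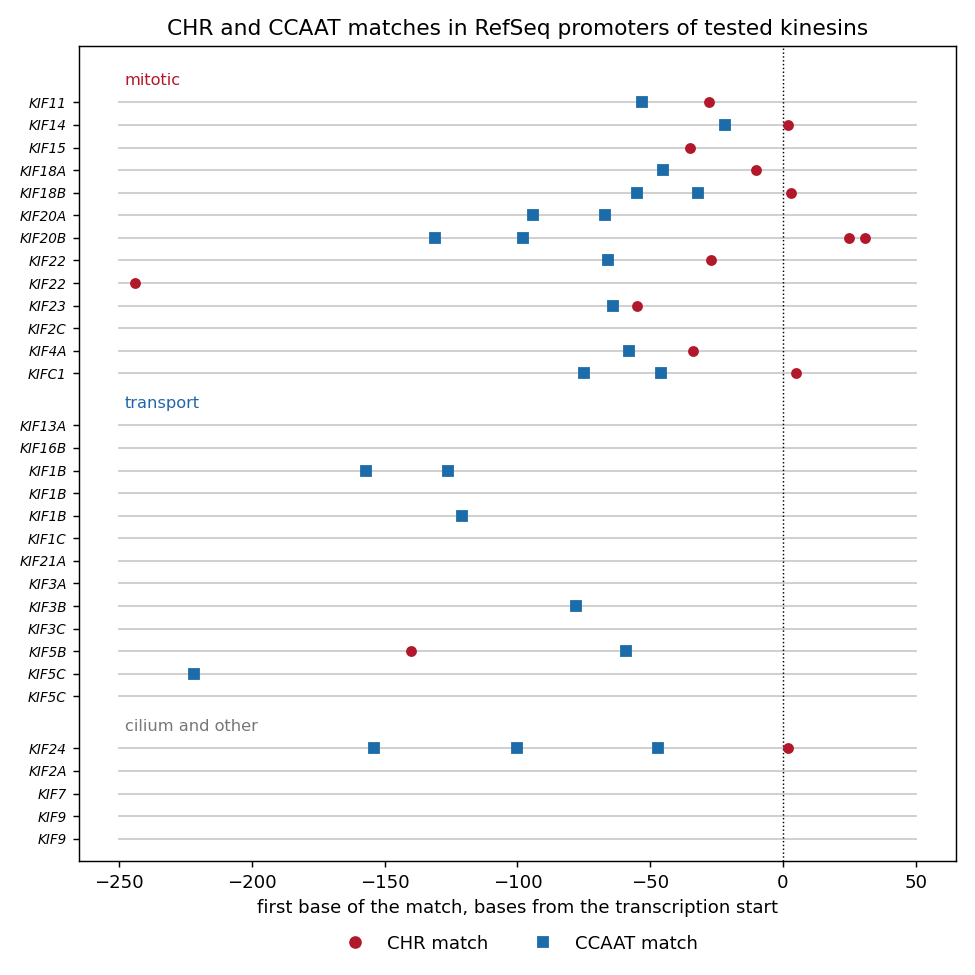
Each grey line is 1 RefSeq promoter window of a tested kinesin, from 250 bases before to 50 after the transcription start, with several lines for genes with several starts; circles mark CHR matches and squares CCAAT matches. Circles cluster near the start in 10 of 12 mitotic motors, and appear in KIF5B alone of the transport motors and in KIF24 alone of the others.

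Transcripts of proteins that work with the mitotic motors fell too. All 15 listed spindle partners were lower, with a median of -0.75 and, as before, 26.3% of all genes called lower. CENPE itself, a kinesin-7, was at 6.04 ± 0.30 TPM with TGH and 11.8 ± 0.292 TPM with DMSO (SD, n = 3 each), a fall of 0.87 (SE 0.045, limma adjusted p = 1.9e-05). AURKA, the kinase of spindle poles, was at 48.1 ± 0.944 TPM with TGH and 100.7 ± 4.67 TPM with DMSO, and NUSAP1, a spindle microtubule protein, at 41.4 ± 0.721 TPM with TGH and 85.8 ± 3.89 TPM with DMSO. TPX2, which targets AURKA and KIF11 to the spindle, fell by 0.84, and CDCA8 and BIRC5, subunits of the chromosomal passenger complex that KIF20A carries, fell by 0.97 and 0.78 (limma adjusted p from 2.2e-06 to 7.8e-06 for these 5 genes). The smallest fall of the list was that of NUMA1, a protein of spindle poles, at -0.11, a gene named after its value was seen, and its call was lost under quantile normalization (-0.08, limma adjusted p = 0.0592) and against DMSO replicate 3 alone (-0.10, adjusted p = 0.0906).

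Genes of late cell cycle transcription had 9 lower and 1 higher of 12, with a median of -0.21, beside 26.3% lower and 28.9% higher over all genes tested. The list holds subunits of MuvB and of NF-Y, and those of MuvB did not move together. MYBL2, which joins MuvB in the late cell cycle, was at 40.02 ± 0.789 TPM with TGH and 81.6 ± 2.44 TPM with DMSO (SD, n = 3 each), a fall of 1.01 (limma adjusted p = 2.5e-06). FOXM1, which is recruited after it, was at 38.0 ± 0.841 TPM with TGH and 57.5 ± 1.43 TPM with DMSO, a fall of 0.59 (limma adjusted p = 1.8e-05). TFDP1, the partner of E2F factors, fell by 0.52, E2F4, the E2F of repressor complexes, by 0.22 and LIN9, a MuvB subunit, by 0.26 (limma adjusted p from 1.1e-05 to 0.00205). The NF-Y subunits NFYA, NFYB and NFYC fell by 0.18, 0.20 and 0.30 (limma adjusted p of 0.00773, 0.00528 and 0.00249). LIN54 and LIN52, MuvB subunits too, were not called, at -0.12 and 0.19 (limma adjusted p of 0.162 and 0.255). RBBP4, of the same list, fell by 0.17 (limma adjusted p = 0.00815). These NF-Y and MuvB genes and RBBP4 were named after their values were seen. LIN37, another MuvB subunit, was the member called higher, at 0.42 (limma adjusted p = 0.0115). It was named after its value was seen, and its call was lost against DMSO replicate 3 alone (0.26, adjusted p = 0.06).

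Adaptors and cofactors of the transport motors had 9 higher, 3 lower and 8 uncalled of 20, with a median of 0.13. Over all genes tested 28.9% were called higher and 26.3% lower, so the 12 calls of 20 are near the 55.2% called in all. MAPK8IP3 (JIP3), which links kinesin-1 to vesicles, was at 9.20 ± 0.583 TPM with TGH and 5.72 ± 0.137 TPM with DMSO (SD, n = 3 each), a rise of 0.60 (limma adjusted p = 1.5e-04). PLEKHM2 (SKIP), which links kinesin-1 to lysosomes, rose by 0.30, and KLC1, a kinesin-1 light chain, by 0.22 (limma adjusted p of 0.00109 and 0.00104). SPAG9 (JIP4), a relative of MAPK8IP3, rose by 0.19, whereas KIAA1279, the kinesin-binding protein also named KIFBP, fell by 0.22 (limma adjusted p of 0.00266 and 0.00176). KLC2, another light chain, was at 0.08 and KIFAP3, the third subunit of the KIF3A and KIF3B motor, at 0.14, and neither was called (limma adjusted p of 0.0547 and 0.0763). KLC2 was called under 2 alternatives, such as without DMSO replicate 3 (0.10, adjusted p = 0.0404). KIFAP3 was called without DMSO replicate 1 (0.18, adjusted p = 0.0421) and against DMSO replicate 3 alone (0.26, adjusted p = 0.0144).

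Dynein, the motor that moves opposite to most kinesins, and its cofactors had 8 lower, 1 higher and 9 uncalled of 18, with a median of -0.09. The 9 calls of 18 compare with 55.2% called over all genes tested, a share near theirs. DYNC1H1, the dynein heavy chain, was at 51.0 ± 0.498 TPM with TGH and 50.9 ± 1.33 TPM with DMSO (SD, n = 3 each) and was not called, at 0.002 (SE 0.028, limma adjusted p = 0.959). The sign of so small a value changed between alternatives. The called falls included NDE1 by 0.47 and PAFAH1B1 (LIS1) by 0.43, regulators of dynein that also act in mitosis, and the light chains DYNLL1 by 0.32 and DYNLL2 by 0.30 (limma adjusted p from 6.1e-05 to 4.2e-04). DYNC1LI1, a light intermediate chain, fell by 0.20 (limma adjusted p = 0.00624), a call lost against DMSO replicate 3 alone (-0.15, adjusted p = 0.066).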

How the data were processed

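RNA of PC-3 cells was sequenced after depletion of ribosomal RNA, with a kit that keeps the strand, per the labels' protocols. The deposited table holds log2(TPM + 1) values made by the authors, 1 row per gene symbol and 1 column per library. Per the submitters' processing notes, hg19 was the build; the sources used here do not name the aligner, quantifier or annotation. Genes that averaged 1 TPM or more across all libraries were tested, 12018 in all. The two-sided test was limma 3.58.1 (R 4.3.3) on the deposited values, TGH minus DMSO, with an intensity trend in the prior variance, p-values adjusted by Benjamini-Hochberg over every tested gene, and calls made below an adjusted 0.05. The step was tested on simulated data. Every kinesin matched by symbol is reported, with values per library for tested mitotic motors and for others that differed by at least 0.3. For partner lists up to 5 genes with the smallest p, 7 set genes and those said to be named after their values were seen are given. The kinesins, roles and lists were chosen with earlier results of these data known. A kinesin under 0.1 TPM in every library is called not expressed. Alternatives covered pseudocounts, filters, scaling, variance models, a replicate block, exact zeros, the control libraries and each library left out. Promoters came from RefSeq (GRCh38.p14). Figures were drawn with matplotlib 3.10.9.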

Additional observations from a re-analysis of the deposited data

How the results depend on the processing

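The 12 mitotic motors were called lower, and none higher, under all 18 alternatives of the fit, and all other counts not given here stayed within 1.5 times their reported value. With a filter at a mean of 5 TPM, under which fewer genes are tested, 4 transport motors were higher, 0 motors of cilia and other roles were higher and 1 was lower. Quantile normalization gave 4 higher transport motors and 0 higher motors of cilia and other roles, and it ended the calls of KIF13B (0.11, limma adjusted p = 0.203), KIF21A (0.12, limma adjusted p = 0.071), KIF3A (0.19, adjusted p = 0.0831) and KIF27 (0.25, adjusted p = 0.0716); the cause was not tested. Against DMSO replicate 3 alone, a lone library assumed to vary like the TGH libraries, 1 motor of cilia and other roles was lower, 2 dynein genes were higher and 4 lower, and 0 genes of late cell cycle transcription were higher. Without the filter 2 dynein genes were higher, and leaving out each library in turn gave 1 to 3, the most without DMSO replicate 2.

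With KIF2A counted as mitotic, a choice added after seeing the data, 12 of 13 mitotic motors were lower (median -0.75) and the median of the 4 remaining motors of cilia and other roles was -0.17. The median of the mitotic motors was -0.81 with a pseudocount of 0.1 and -0.62 with 5, which by construction damps low genes. That of the transport motors was 0.11 with a pseudocount of 5, 0.093 without the filter, 0.0445 at a mean of 5 TPM, 0.16 under median scaling, 0.11 under quantile normalization and 0.11 against DMSO replicate 3 alone. That of the motors of cilia and other roles was -0.24 at a mean of 5 TPM. Uncalled values close to 0 changed sign: KIF9 had 0.0197 against DMSO replicate 3 alone and -0.0745 to 0.0276 when each library was left out, and DYNC1H1 had -0.0309 under median scaling, -0.0185 with libraries rescaled to the same sum and -0.0119 to 0.0227 when each library was left out.

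Deviations of same-numbered libraries correlated at 0.009, 0.054 and 0.228, and not every library correlated best with its own number. With 3 libraries per group such values cannot show whether the numbers pair the samples. The main fit did not pair them. With the replicate number as a block 3273 genes were higher and 2958 lower, and the 12 mitotic calls, the 7 higher and 4 lower transport calls were the same in number. TPM keeps no depth, so limits of detection for low kinesins are unknown.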
